A study of Homo sapiens with 3 samples.

Results

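Hemidesmosomes and laminin-332 anchor basal epithelial cells to the basement membrane. Their genes were followed as a group of 9, taken by symbol for their known roles, with earlier results of these data known: COL17A1, ITGA6, ITGB4, LAMA3, LAMB3, DST, PLEC, COL7A1 and CD151. All 9 were found among the 23277 gene symbols measured, and all 9 passed the filter on low values, a mean of at least 1 FPKM, which 11409 genes passed. FPKM counts fragments per transcript length and per total of mapped fragments. The cells were CaSki, a widely used line of epidermoid carcinoma of the cervix, and the study looked for genes that depend on the pluripotency factor NANOG together with the histone deacetylase HDAC1. Cells carrying pMSCV/FLAG-NANOG and given siHDAC1 gave the first library, cells carrying pMSCV/FLAG-NANOG and given siGFP the second, and cells with the pMSCV empty vector and siGFP the third. Every group thus shared the retroviral backbone and an siRNA transfection. Whether the lines were clones or pools is not given in the sources used here. With 1 library per group, the spread between replicates is unknown, and no test, p-value or interval could be given. In what follows, HDAC1 siRNA stands for the first library and empty vector for the third.

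A hemidesmosome is built around the integrin made of an alpha6 chain (ITGA6) and a beta4 chain (ITGB4), which binds laminin-332 outside the cell. Laminin-332 is a heterotrimer, and LAMA3 and LAMB3 encode its alpha3 and beta3 chains. Type XVII collagen (COL17A1), a transmembrane protein, and the tetraspanin CD151 sit beside the integrin, and the plakins plectin (PLEC) and BP230 (DST) tie it to keratin filaments. Below the basement membrane, type VII collagen (COL7A1) forms the anchoring fibrils. In stratified epithelium this complex belongs to the basal layer, and inherited loss of several of these genes causes skin blistering.

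Promoter sequences are shown for 4 of the genes: COL17A1 and ITGA6, whose levels moved furthest and in opposite directions, and LAMA3 and LAMB3, which encode chains of the same heterotrimer but differed in pattern. Each runs 5′ to 3′ over the 250 bases before the start site of RefSeq on GRCh38.p14, and for ITGA6 and LAMB3 the most upstream start was taken. Capitals mark the AP-1 motif TGANTCA, the TATA motif TATAAA, the GC box GGGCGG and the hypoxia response element core ACGTG, on either strand.
COL17A1, chr10:104085881-104086130, minus strand: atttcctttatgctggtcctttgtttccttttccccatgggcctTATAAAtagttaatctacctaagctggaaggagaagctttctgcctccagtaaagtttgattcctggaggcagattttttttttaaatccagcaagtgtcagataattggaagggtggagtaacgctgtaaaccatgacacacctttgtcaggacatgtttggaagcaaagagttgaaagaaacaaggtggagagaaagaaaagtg
ITGA6, chr2:172427086-172427335, plus strand: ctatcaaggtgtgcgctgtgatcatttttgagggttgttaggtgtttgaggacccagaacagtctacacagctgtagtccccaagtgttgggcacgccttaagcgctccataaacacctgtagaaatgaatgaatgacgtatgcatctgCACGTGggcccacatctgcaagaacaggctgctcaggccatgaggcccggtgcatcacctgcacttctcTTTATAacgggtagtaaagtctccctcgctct
LAMA3, chr18:23872770-23873019, plus strand: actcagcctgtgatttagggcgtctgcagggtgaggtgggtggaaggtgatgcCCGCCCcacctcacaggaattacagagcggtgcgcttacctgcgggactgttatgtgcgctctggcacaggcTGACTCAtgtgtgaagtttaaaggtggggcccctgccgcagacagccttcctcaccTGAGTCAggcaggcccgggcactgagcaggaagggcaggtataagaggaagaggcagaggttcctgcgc
LAMB3, chr1:209652426-209652675, minus strand: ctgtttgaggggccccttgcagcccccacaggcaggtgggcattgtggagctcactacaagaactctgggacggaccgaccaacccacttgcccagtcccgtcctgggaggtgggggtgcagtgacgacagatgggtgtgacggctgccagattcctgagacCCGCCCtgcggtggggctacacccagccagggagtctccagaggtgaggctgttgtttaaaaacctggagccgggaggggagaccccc

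Of the 9 genes, 6 matched the promoter table, with 11 starts in all. Positions below give the leftmost base of a match, with -1 as the last base before the start. LAMA3, with 1 start in the table, held 2 AP-1 matches, at -125 and -69. An AP-1 match occurred in 6.57% of the 35116 windows of the same length in the table, and 2 or more in 0.402%. Among the matched members, the only other AP-1 match lay at -67 before the third, most downstream start of LAMB3. The COL17A1 window held a TATA match at -206 and a homeobox core (TAATNG) match at -103; these motifs occurred in 10.7% and 17.0% of windows. ITGA6 had a TATA match at -32 on the opposite strand, printed as TTTATA. Its window also held the palindrome CACGTG, which counts as an ACGTG match on each strand. The palindrome overlaps 1 of the 7 E-box (CANNTG) matches in that window. ACGTG occurred in 18.5% of windows and CANNTG in 61.8%. Among the 4 windows shown, a GC box was found in LAMA3 at -197 and in LAMB3 at -88, against 42.6% of all windows. Windows not shown also held GC boxes: the second start of ITGA6, the other starts of LAMB3, the first of DST and that of COL7A1. These matches describe letters in the windows and show no binding.

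The targeted genes were looked at first. NANOG was at 325 FPKM in the HDAC1 siRNA library, 298 FPKM in the NANOG GFP siRNA library and 0.0357 FPKM in the empty vector library. HDAC1 was at 12.8, 108 and 19.02 FPKM in that order, so its level in the NANOG GFP siRNA library stood apart from both others. The steps of single fragments among 2158 genes under 0.3 FPKM put the 3 depths within about 2% of each other (most frequent ratio 0.982 for each NANOG library over empty vector), but the number of fragments behind a value is unknown. Epithelial markers were present, with 6 of 6 at 1 FPKM or more in at least 1 library, and summed to 1912, 2164 and 2288 FPKM in the same order. Fibroblast markers summed to between 2.73 and 4.75 FPKM with 1 of 6 reaching 1 FPKM (COL1A1). The endothelial and the leukocyte markers each stayed below 0.5 FPKM in sum, with KDR listed at 0 in every library.

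The anchorage genes were well expressed in all 3 libraries except for ITGB4 and DST. Their median was 47.1 FPKM in the HDAC1 siRNA library, 52.4 FPKM in the NANOG GFP siRNA library and 48.5 FPKM in the empty vector library, against medians of 12.0, 11.8 and 12.2 FPKM over all genes kept. CD151 had the highest FPKM of the 9 in each library and ITGB4 the lowest. ITGB4 lay below the median of all genes kept in each library, and DST only just above it (13.5, 12.6 and 14.5 FPKM). The order of the levels was nearly the same in all libraries: CD151, then LAMB3 and PLEC, COL17A1, LAMA3, then ITGA6 and COL7A1, then DST and ITGB4. LAMB3 and PLEC exchanged places in the NANOG GFP siRNA library, and COL7A1 stood above ITGA6 in the empty vector library only.

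**Figure D1:**
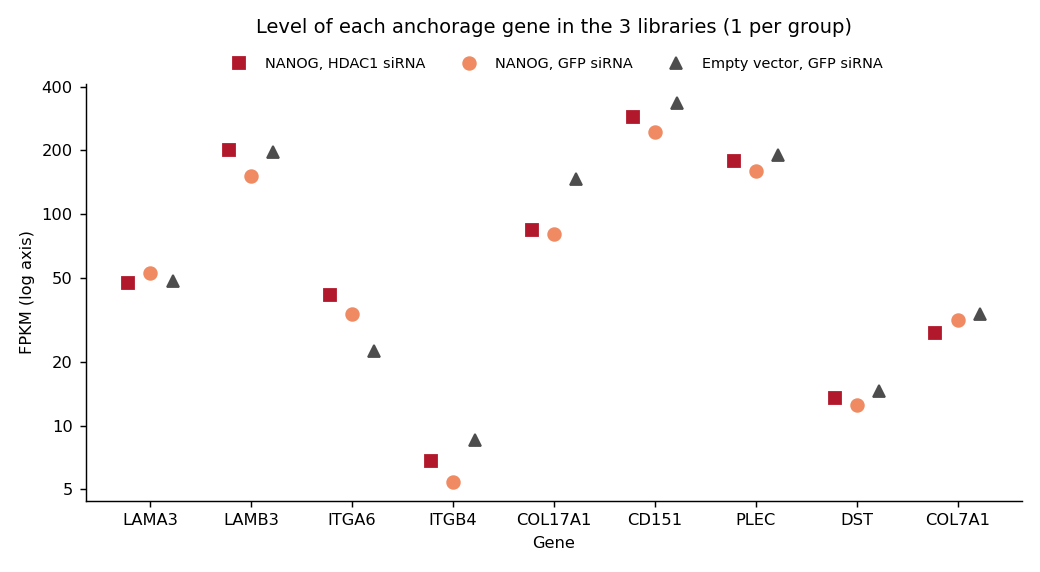
FPKM on a log axis of the 9 anchorage genes, with 1 point for each of the 3 libraries (square, HDAC1 siRNA in NANOG cells; circle, GFP siRNA in NANOG cells; triangle, empty vector with GFP siRNA). COL17A1 is high in the empty vector library alone (146 FPKM), ITGA6 is low there (22.4 FPKM), and LAMB3, CD151 and PLEC are lowest in the NANOG GFP siRNA library.

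Of the laminin-332 genes followed, the alpha3 chain gene stayed near the same level while the beta3 chain gene was low in the NANOG GFP siRNA library. LAMA3, which encodes the chain that carries the integrin-binding end of the trimer, was at 47.1 FPKM with HDAC1 siRNA, 52.4 FPKM in GFP siRNA NANOG cells and 48.5 FPKM with empty vector. The 3 values lay within 0.15 of each other on the log2(FPKM + 1) scale, which is used for all differences below and understates the change of low genes. LAMB3 was at 199.8 FPKM with HDAC1 siRNA, 150.4 FPKM in GFP siRNA NANOG cells and 197 FPKM with empty vector. HDAC1 siRNA against GFP siRNA gave a difference of 0.41, NANOG against empty vector one of -0.39, and the HDAC1 siRNA and empty vector libraries differed by 0.02. The difference of 0.41 was exceeded by 2.41% of all genes kept, and 11.6% of genes had a lower difference than LAMB3 in the NANOG comparison.

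Per length, LAMB3 was more abundant than LAMA3, its partner in the trimer. The ratio of LAMB3 to LAMA3 was 4.24 with HDAC1 siRNA, 2.87 in NANOG cells with GFP siRNA and 4.06 with empty vector. LAMA3 is transcribed from alternative starts into a short and a long form, and a value per gene symbol does not separate them. The promoter window shown for LAMA3 covers 1 start only.

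The integrin chains differed in opposite directions with NANOG. ITGA6, which encodes the laminin-binding alpha6 chain, was at 41.4 FPKM with HDAC1 siRNA, 33.6 FPKM in GFP siRNA NANOG cells and 22.4 FPKM with empty vector. In FPKM it was the only one of the 9 that was lowest in the empty vector library; rescaled to TPM, in which every library has the same sum, LAMA3 was lowest there too. Against empty vector, NANOG gave a difference of 0.565, just under the 1.5-fold limit of 0.585 used for counting, and the HDAC1 siRNA difference was 0.29. Between the HDAC1 siRNA and empty vector libraries it reached 0.86, a ratio of 1.85, and 0.526% of all genes kept had a larger positive difference there.

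ITGB4, which encodes the beta4 chain found in the hemidesmosome, was at 6.82 FPKM with HDAC1 siRNA, 5.43 FPKM in GFP siRNA NANOG cells and 8.59 FPKM with empty vector. NANOG against empty vector gave -0.578, also just inside the 1.5-fold limit; with a pseudocount of 0.1 FPKM in place of 1 it was -0.65, past that limit. The FPKM ratio of NANOG to empty vector was 0.631. With HDAC1 siRNA it was higher by 0.28 than with GFP siRNA. The ratio of ITGA6 to ITGB4 was therefore 6.07 with HDAC1 siRNA and 6.20 with GFP siRNA in NANOG cells, against 2.61 with empty vector. The alpha6 chain also pairs with the beta1 chain (ITGB1), which stood at 117, 114 and 155 FPKM in that sequence, many times the level of ITGB4 in each library. GENCODE release 29 places the protein-coding gene GALK1 across part of ITGB4 on the opposite strand, and whether the authors counted by strand is not given in the sources used here. GALK1 was at 11.6, 11.7 and 10.9 FPKM, above ITGB4 in each library, and its part in the ITGB4 values was not tested.

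COL17A1 differed most among the 9 in the NANOG comparison and did not return with HDAC1 siRNA. This collagen spans the membrane and binds the integrin, BP230 and laminin-332. It was at 83.6 FPKM with HDAC1 siRNA and 80.1 FPKM with GFP siRNA in NANOG cells, against 146 FPKM with empty vector. Both NANOG libraries were low, by -0.80 and -0.86 against empty vector, and they differed from each other by 0.06. The FPKM ratio of NANOG to empty vector was 0.548, and 2.09% of all genes kept had a lower difference than COL17A1. The FPKM of COL17A1 was 2.02 times that of ITGA6 with HDAC1 siRNA and 2.38 times with GFP siRNA in NANOG cells, against 6.52 times with empty vector. In bulk RNA, fewer cells that express a gene and less of its RNA per cell cannot be told apart.

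CD151, a tetraspanin that binds laminin-binding integrins, was at 288 FPKM with HDAC1 siRNA, 245 FPKM in GFP siRNA NANOG cells and 336 FPKM with empty vector. Its NANOG difference was -0.45 and its HDAC1 siRNA difference 0.23, so that the HDAC1 siRNA library lay between the other 2. The annotation places POLR2L, an RNA polymerase subunit gene, across part of CD151 on the opposite strand. POLR2L stood at 236, 252 and 180.5 FPKM in that sequence, lowest where CD151 was highest; its part in the CD151 values was not tested.

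**Figure D2:**
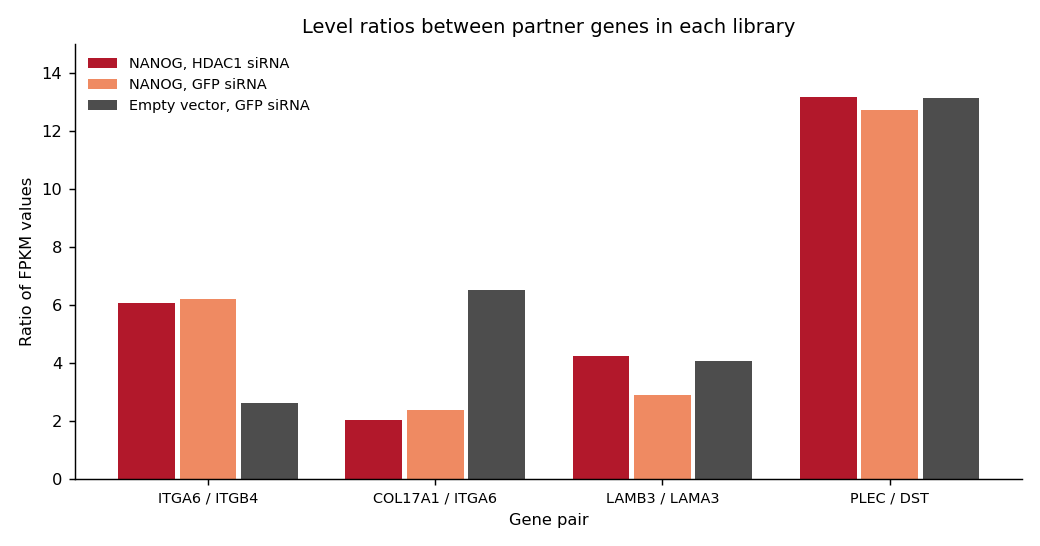
Ratios of FPKM values (linear axis from 0) between pairs of partner genes in each library, with bars for HDAC1 siRNA in NANOG cells, GFP siRNA in NANOG cells and empty vector from left to right. The ratio of ITGA6 to ITGB4 is 6.07 and 6.20 in the NANOG libraries and 2.61 with empty vector, while the ratio of PLEC to DST lies between 12.7 and 13.2.

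The plakin genes kept a near-constant ratio to each other. PLEC, which encodes the linker plectin, was at 178 FPKM with HDAC1 siRNA, 160.04 FPKM in GFP siRNA NANOG cells and 191 FPKM with empty vector. DST, whose epithelial product is BP230, was at 13.5 FPKM with HDAC1 siRNA, 12.6 FPKM in GFP siRNA NANOG cells and 14.5 FPKM with empty vector. In NANOG cells with GFP siRNA against empty vector the differences were -0.25 for PLEC and -0.19 for DST, and for HDAC1 siRNA against GFP siRNA they were 0.15 and 0.10. The ratio of PLEC to DST was 13.2 with HDAC1 siRNA, 12.7 in NANOG cells with GFP siRNA and 13.2 with empty vector. GENCODE lists 35 transcripts for DST and 15 for PLEC. DST also encodes neuronal and muscle forms, so its value is not a measure of BP230 alone.

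COL7A1, the anchoring fibril gene, was at 27.5 FPKM with HDAC1 siRNA, 31.4 FPKM in GFP siRNA NANOG cells and 33.7 FPKM with empty vector. It was the only one of the 9 that was lower at each step, with a NANOG difference of -0.10 and an HDAC1 siRNA difference of -0.19. The NANOG step was small beside other genes, as 73.0% of all genes kept differed by more. In the siRNA comparison only 30.5% differed by more.

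Taking the 9 genes as a group in the NANOG comparison, 7 were lower and 2 (ITGA6 and LAMA3) were higher than in empty vector cells. The median difference was -0.25, against -0.01 over all 11409 genes kept, of which 50.8% were lower. On the log2(FPKM + 1) scale COL17A1 was the only member past 1.5-fold, or 1 of 9. On that scale 8.76% of all genes kept passed 1.5-fold in either direction and 5.27% passed it downward. By plain FPKM ratio ITGB4 (0.631) and ITGA6 (1.501) were past 1.5-fold too, and the share of all genes kept by plain ratio was not counted. In FPKM no member reached 2-fold in any of the 3 comparisons. Of all genes kept, also in FPKM, 1.89% did with NANOG against empty vector and 0.298% with HDAC1 siRNA against GFP siRNA. Between the HDAC1 siRNA and empty vector libraries 1.19% did. Under TPM ITGA6 reached 2-fold in the HDAC1 siRNA library against empty vector (1.003). The share of all genes kept at 2-fold under TPM was not counted. The median size of a difference over all genes kept was 0.20, and 6 of the 9 exceeded it (COL17A1, ITGB4, ITGA6, CD151, LAMB3 and PLEC).

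HDAC1 siRNA in NANOG cells gave smaller differences, with a median size of 0.19 over the 9 genes against 0.39 in the NANOG comparison. Over all genes kept the median size was smaller too, at 0.12 against 0.20. COL7A1 and LAMA3 were lower and the other 7 genes were higher than with GFP siRNA; LAMA3 was higher when the libraries were rescaled to TPM. The median difference of the 9 was 0.15, against 0.01 over all genes kept, of which 53.4% were higher. No member passed 1.5-fold, where 2.13% of all genes kept did in either direction. LAMB3 (0.41), ITGA6 (0.29), ITGB4 (0.28) and CD151 (0.23) were the largest positive differences. This comparison and the NANOG comparison share the NANOG GFP siRNA library, so an excursion in that library alone enters them with opposite signs. That library was the lowest of the 3 for 6 members (COL17A1, ITGB4, LAMB3, DST, PLEC and CD151); 37.3% of all genes kept were also lowest there.

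**Figure D3:**
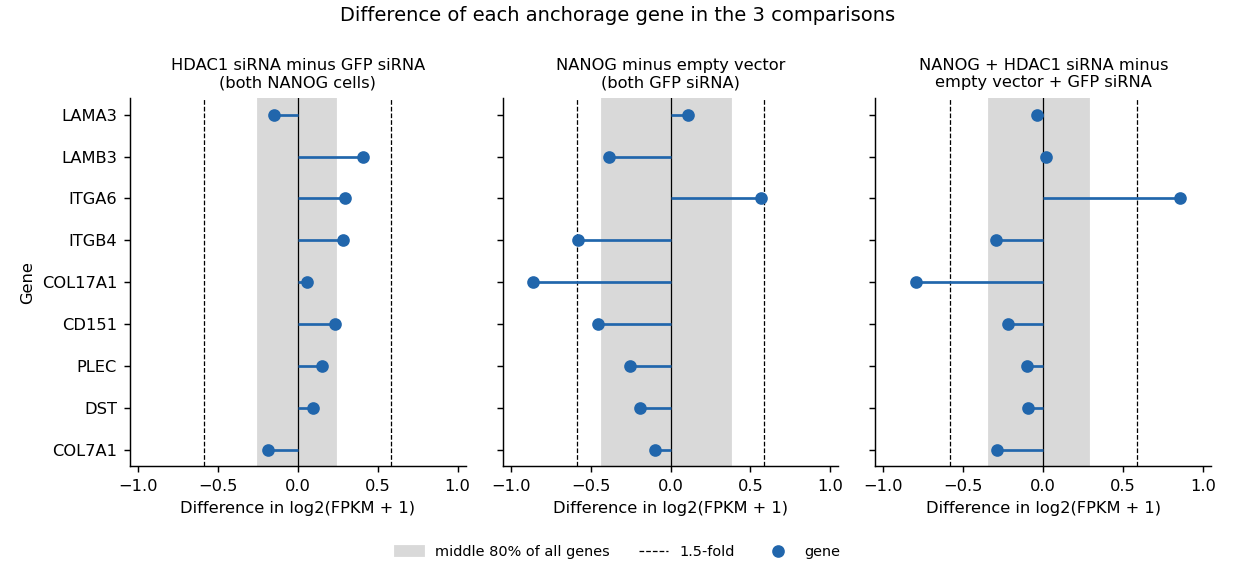
Differences in log2(FPKM + 1) of the 9 genes for HDAC1 siRNA against GFP siRNA in NANOG cells (left), NANOG against empty vector (middle) and NANOG with HDAC1 siRNA against empty vector (right); the grey band spans the 10th to the 90th percentile of all genes kept and dashed lines mark 1.5-fold. COL17A1 lies left of the band in the middle and right panels (-0.86 and -0.80), and ITGA6 lies right of it in all 3 panels (0.29, 0.57 and 0.86). ITGB4 (-0.58) and CD151 (-0.45) also lie left of it in the middle panel, and LAMB3 (0.41) and ITGB4 (0.28) right of it in the left panel.

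NANOG cells with HDAC1 siRNA differ from empty vector cells in the vector and in the siRNA, and HDAC1 siRNA without NANOG was not analysed here; the contributions cannot be told apart in that comparison. ITGA6 (0.86) and COL17A1 (-0.80) were past 1.5-fold, or 2 of 9, where 5.24% of all genes kept were. LAMB3 (0.02), LAMA3 (-0.04), DST (-0.10) and PLEC (-0.10) differed least from their empty vector level, and under TPM the last 3 were slightly higher than in empty vector cells. ITGB4 (-0.29), COL7A1 (-0.29) and CD151 (-0.22) were lower. The median of the 9 was -0.10, against 0.00 over all genes kept; rescaled to TPM it was 0.033, with all genes kept at 0.13.

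The genes around the anchorage complex were followed in 8 further lists of 62 genes in all, of which 47 were kept. In the NANOG comparison 38 of the 47 were lower and 9 higher, with a median of -0.32; 10 were lower and 1 was higher by at least 1.5-fold, beside 5.27% of all genes kept lower by that fold and 50.8% lower in sign. With HDAC1 siRNA against GFP siRNA, 18 were lower and 29 higher, with a median of 0.04, and 2 were lower and 1 was higher by at least 1.5-fold. Of all genes kept, 53.4% were higher in that comparison and 2.13% passed 1.5-fold in either direction. Under TPM 9 of the 47 were lower and 38 higher, since that scaling moved the median of all genes kept to 0.18.

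Other receptors for laminin and collagen were lower with NANOG in 7 of 7 genes kept (median -0.41). ITGA2, which pairs with the beta1 chain, was at 6.27 FPKM with HDAC1 siRNA, 4.19 FPKM in GFP siRNA NANOG cells and 8.36 FPKM with empty vector, a difference of -0.85 with NANOG. The Lutheran glycoprotein gene BCAM, which encodes a receptor for the laminin alpha5 chain, differed by -0.60 with NANOG, ITGB1 by -0.44 and ITGA1 by -0.41. ITGA3, whose product also binds laminin-332 and whose value was singled out after it was seen, stood at 140.1, 154 and 199 FPKM in that sequence. The ratio of ITGA6 to ITGA3 was 0.296 with HDAC1 siRNA, 0.219 in NANOG cells with GFP siRNA and 0.112 with empty vector, so that ITGA3 stayed the more abundant laminin-binding alpha chain.

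Among the other laminin chains, 3 of 5 genes kept were lower with NANOG (median -0.13) and none passed 1.5-fold. LAMA5, the alpha chain of laminins in many mature basement membranes, was at 40.6 FPKM with HDAC1 siRNA, 46.6 FPKM in GFP siRNA NANOG cells and 63.5 FPKM with empty vector. LAMC1 differed by -0.25 with NANOG and LAMB2 by 0.11. Of the other basement membrane genes, 5 of 12 were kept and 4 of these were lower with NANOG. The type IV collagen gene COL4A1 was at 11.5 FPKM with HDAC1 siRNA, 7.37 FPKM in GFP siRNA NANOG cells and 14.3 FPKM with empty vector, and COL4A2 was at 24.0, 19.8 and 34.1 FPKM. The NANOG differences were -0.87 for COL4A1 and -0.75 for COL4A2, and COL4A1 was higher by 0.58 with HDAC1 siRNA against GFP siRNA. The perlecan gene HSPG2 differed by -0.37 with NANOG and the agrin gene AGRN by -0.46.

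On the inner side of the complex, all 5 other plakins were lower with NANOG (median -0.39), with PPL, which encodes periplakin of the cornified envelope, at -0.71, MACF1 at -0.55, the desmoplakin gene DSP at -0.39 and EPPK1 at -0.23. With HDAC1 siRNA against GFP siRNA their median was -0.01, or 0.14 under TPM. The basal keratins that plectin and BP230 hold did not move together: KRT5 was at 540 FPKM with HDAC1 siRNA, 959 FPKM in GFP siRNA NANOG cells and 555 FPKM with empty vector. KRT14, its usual filament partner, was at 80.4, 76.9 and 114 FPKM, and KRT15 at 4.57, 4.43 and 14.2 FPKM. KRT14 and KRT15 thus shared with COL17A1 a high level in empty vector cells alone, whereas KRT5 stood highest in GFP siRNA NANOG cells.

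Of the tetraspanins other than CD151, CD9 was at 175 FPKM with HDAC1 siRNA, 164 FPKM in GFP siRNA NANOG cells and 264 FPKM with empty vector, a NANOG difference of -0.68. CD63 (-0.15), CD81 (-0.06) and CD82 (0.02) differed less. In the list of proteases that process laminin-332 or shed type XVII collagen, 7 of 8 genes kept were lower with NANOG (median -0.33). PLAT, the tissue plasminogen activator gene, was at 8.75 FPKM with HDAC1 siRNA, 8.52 FPKM in GFP siRNA NANOG cells and 45.9 FPKM with empty vector. MMP14 differed by -0.44, the procollagen C-proteinase gene BMP1 by -0.41 and ADAM9 by -0.33. Focal adhesion genes were lower with NANOG in 7 of 10 cases (median -0.13). FERMT2, which encodes kindlin-2, was at 14.2 FPKM with HDAC1 siRNA, 8.70 FPKM in GFP siRNA NANOG cells and 14.998 FPKM with empty vector. VCL, which encodes vinculin, was at 33.6, 55.3 and 47.1 FPKM in that order. The focal adhesion kinase gene PTK2 differed by -0.65 with NANOG and the zyxin gene ZYX by -0.41.

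**Figure D4:**
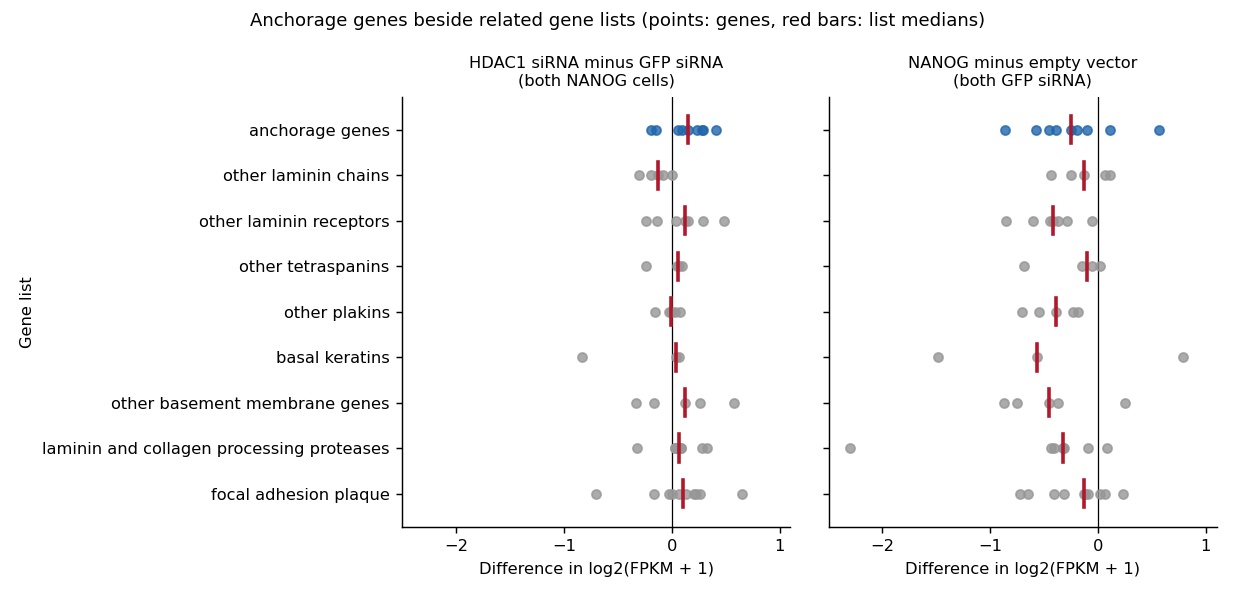
Differences in log2(FPKM + 1) of the genes kept in the 9-gene anchorage set (blue) and in 8 related lists (grey), for HDAC1 siRNA against GFP siRNA in NANOG cells (left) and NANOG against empty vector (right), with red bars at list medians. In the right panel the medians run from -0.57 for basal keratins to -0.10 for other tetraspanins, with the anchorage set at -0.25.

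COL17A1 and ITGA6 had the widest spans over the 3 libraries, each 0.86. The genes nearest to each in the pair of differences (for NANOG and for HDAC1 siRNA) were sought by Euclidean distance, and 8367 genes averaging 5 FPKM or more were searched. For COL17A1 these were the tenascin-C gene TNC (distance 0.00229), the pyruvate dehydrogenase kinase gene PDK1 (0.0144) and the transporter gene SLCO4A1 (0.0145), and 31 genes lay within 0.1. TNC was at 8.03 FPKM with HDAC1 siRNA, 7.65 FPKM in GFP siRNA NANOG cells and 14.7 FPKM with empty vector. For ITGA6 they were the calbindin gene CALB1 (0.0985), the ubiquitin-conjugating enzyme gene UBE2J1 (0.113) and the ephrin gene EFNA1 (0.121), and 1 gene lay within 0.1. EFNA1 was at 60.5 FPKM with HDAC1 siRNA, 46.1 FPKM in GFP siRNA NANOG cells and 29.2 FPKM with empty vector. With 3 libraries, such likeness describes these values only.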

How the data were processed

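Total RNA of 3 groups of 1 library each was sequenced after a stranded total RNA library kit, per the labels' protocols. Reads were processed with TopHat2 and Cufflinks on hg19, per the submitters' processing notes; for versions, annotation and strand use, nothing is given in the sources used here. What the authors deposited is 1 value per gene symbol, taken as FPKM from these tools and the values, since the file headers name no unit. FPKM divides by library size, so a few very abundant RNAs lower all other values. Absolute depth is unknown.

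Differences were computed as log2(FPKM + 1) of the first group minus the second, without 1623 small RNA symbols for the 11409 genes averaging 1 FPKM or more. A gene was counted at 1.5-fold or more. With 1 library per group no test was run. The members and lists were chosen with earlier results of these data known. Named genes were the members, up to 4 genes per related list with the largest difference, NANOG, HDAC1 and the 3 genes nearest to each of the 2 members of widest span; others are said to be singled out. TP63, KDR, GALK1 and POLR2L were named for their place beside a result. Alternatives were other pseudocounts, filters, folds and scalings, small RNAs kept and the mean in place of the median. Some genes of these lists are not reported here and entered no count. Promoters came from RefSeq (GRCh38.p14) and overlaps from GENCODE release 29, neither the hg19 build of the values. Python 3.11.15, numpy 2.4.6, pandas 2.3.3 and matplotlib 3.10.9 were used.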

Additional observations from a re-analysis of the deposited data

How the results depend on the processing

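No paired analysis was possible because each group had 1 library. In the NANOG comparison, 2 members passed 1.5-fold with a pseudocount of 0.1 or 0.5 FPKM and under TPM (COL17A1 with ITGB4). After scaling to the same upper quartile, 2 did (COL17A1 with ITGA6). Under these 4 settings 12.4%, 10.5%, 10.3% and 8.73% of all genes kept passed, against 8.76% as reported. A limit of 0.32 on the log2 scale was passed by 5 members, of which LAMB3 differed least. The share of all genes kept past 0.32 lay between 21.0% (larger in size than LAMB3) and 39.1% (larger than PLEC). At 2-fold 0 members passed, where 1.89% of all genes kept did. With HDAC1 siRNA in NANOG cells, 1 member (LAMB3) passed 1.5-fold under TPM, as did 3.38% of all genes kept, against 2.13% as reported. The limit of 0.32 was passed by 1 member, also LAMB3. There the share of all genes kept lay between 6.21% (larger in size than LAMB3) and 14.0% (larger than ITGA6). The 2 members past 1.5-fold in the HDAC1 siRNA library against empty vector became 0 at 2-fold in FPKM, whereas ITGA6 was at 1.003, just past 2-fold, under TPM. TPM moved the median of all genes kept to 0.18 for HDAC1 siRNA against GFP siRNA, where the median of the members was 0.33, and to 0.13 for HDAC1 siRNA against empty vector, where it was 0.033; the sums used for TPM include small RNAs, which held 16.0%, 23.1% and 21.2% of the HDAC1 siRNA, NANOG GFP siRNA and empty vector sums. Of the 27 single-gene differences, 4 changed sign under TPM and 0 under any of the other 7 settings run for single genes; no difference past 1.5-fold did.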
